A study of Mus musculus with 12 samples.

Results

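The peaks described here are the hnRNP H binding peaks that lie in exons without coding or untranslated-region annotation: long non-coding RNAs, small structured RNAs, pseudogenes, and exons that belong to non-coding transcripts of protein-coding genes. They were chosen by position from 2 deposited peak lists, 1 per treatment. Each distinct position was placed by its midpoint, with 3′ UTR, 5′ UTR and coding exon taking precedence over a non-coding exon, and a non-coding exon over an intron. Of 14711 distinct positions, 291 (1.98%) fell in this class, against 1935 in 3′ UTRs, 801 in 5′ UTRs, 1308 in coding exons and 10317 in introns. The midpoint of 141 of the 291 also lay in an intron of some annotated transcript, so the class depends on which transcript is read. In 5 of the 291 the exon lay only on the strand opposite to the peak.

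hnRNP H is a nuclear RNA-binding protein that recognises runs of guanines and acts in splicing and polyadenylation. Long non-coding RNAs are transcripts without a known protein product; several, such as Malat1 and Neat1, stay in the nucleus, and others, such as Meg3, come from imprinted loci and are abundant in neurons. Small nucleolar RNAs (snoRNAs) and the related Cajal-body scaRNAs guide chemical modification of ribosomal and spliceosomal RNA, and most are cut from introns of host genes, many of which encode ribosomal proteins.

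RNA cross-linked to hnRNP H in mouse striatum was immunoprecipitated and sequenced (CLIP-seq), and total RNA set aside from the same tissue pools before cross-linking was sequenced as RNA-seq. All animals were wild-type C57BL/6J mice, bred from heterozygous Hnrnph1 mutant fathers, at postnatal day 50 to 100. Every mouse received saline (10 ml/kg, intraperitoneal) on days 1 and 2; on day 3 the saline group received saline again and the methamphetamine group 2 mg/kg of this psychostimulant. Whole striata were taken 30 min later, and each of the 3 replicates per group pooled 4 mice (2 females and 2 males), so no value belongs to a single animal. The comparison asks how hnRNP H binding and RNA levels differed shortly after the drug.

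The 6 CLIP libraries held 423057 to 1635338 reads in peaks, and the 6 RNA-seq libraries 3935160 to 5091839 recovered reads. On the first principal component of the RNA-seq values the libraries separated by neither treatment nor replicate number: saline replicates 1 and 3 and methamphetamine replicate 2 (called set A) lay opposite saline replicate 2 and methamphetamine replicates 1 and 3 (set B). The labels name no batch for these sets, which were defined from the data. All 12 striatal projection neuron markers were present, with a summed level of 7480 to 8570 CPM (set A) and 5340 to 5950 CPM (set B). The 12 cortical excitatory markers summed to 353 to 743 CPM (set A) and 726 to 1450 CPM (set B). Choroid plexus markers summed to 147 to 288 CPM in set B and 156 to 5370 in set A, the highest in methamphetamine replicate 2. Tissue composition and RNA per cell cannot be told apart in these pools.

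By gene biotype in GENCODE M21, 146 of the 291 positions (50.2%) lay in 43 long non-coding RNA genes and 65 in 57 protein-coding genes. snoRNA and scaRNA genes held 37, pseudogenes 23, miRNA precursors 9, mitochondrial ribosomal or transfer RNA genes 9, and other structured RNA genes 2. Meg3 alone held 42 positions, Malat1 24 and Miat 17, and these 3 nuclear or imprinted-locus RNAs were followed by Neat1 with 6 and by Peg13, mt-Rnr2 and Mir124a-1hg with 5 each. Of the 165 genes, 138 had a single position. Within the 2 fixed lists, 15 of 44 named long non-coding RNAs and 3 of 18 structural RNA genes had such a peak. The highest-count rRNA peak of the tables, in n-R5-8s1, and the peak in the RNase P RNA gene Rpph1 were placed in introns by the same rule and are not among the 291.

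**Figure D1:**
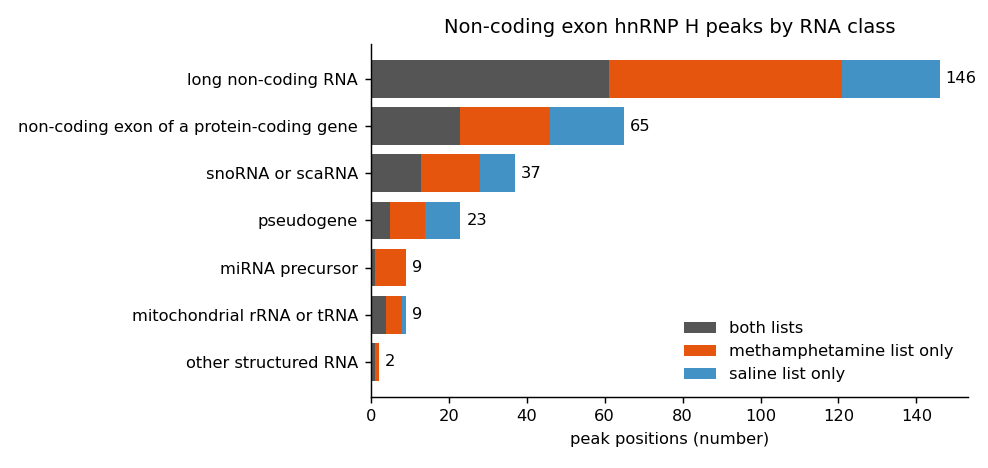
Number of non-coding exon peak positions in each RNA class (horizontal bars), divided by whether the position was in both peak lists, the methamphetamine list only or the saline list only. Long non-coding RNAs held 146 of the 291 positions, and 8 of 9 miRNA precursor positions were in the methamphetamine list only, beside 35.2% of all 14711 listed positions.

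Sequences of the peaks that carry most of the reads, or that differ most in their guanine content, are printed first. All are 100 nt, written 5′ to 3′ on the RNA strand with T for U, taken from GENCODE M21 transcripts (GRCm38), with runs of 3 or more guanines in capitals. Malat1, Meg3 and mt-Rnr2 were chosen for their read counts:

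Malat1, chr19:5801091-5801190, minus strand: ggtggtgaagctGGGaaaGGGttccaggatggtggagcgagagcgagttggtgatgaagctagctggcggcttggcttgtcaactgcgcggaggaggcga
Malat1, chr19:5797391-5797490, minus strand: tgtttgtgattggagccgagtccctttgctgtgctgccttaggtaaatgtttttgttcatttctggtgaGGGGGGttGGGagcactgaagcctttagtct
Meg3, chr12:109561002-109561101, plus strand: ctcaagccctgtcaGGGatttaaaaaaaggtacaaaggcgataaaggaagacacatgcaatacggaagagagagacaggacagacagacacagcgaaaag
mt-Rnr2, chrM:1195-1294, plus strand: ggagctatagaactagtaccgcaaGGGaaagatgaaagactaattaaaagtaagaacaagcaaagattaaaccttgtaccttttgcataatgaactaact
mt-Rnr2, chrM:1595-1694, plus strand: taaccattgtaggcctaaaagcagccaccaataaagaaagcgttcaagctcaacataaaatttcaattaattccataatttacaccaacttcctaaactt

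The first Malat1 peak, in second place by level, had 46 guanines in 100 bases but no run longer than 3, while the second had a run of 6. The mt-Rnr2 peak with the highest level of all had 1 run and 19 guanines, and the other had none and 9 guanines. The next 4, from other long non-coding RNAs, show peaks with several runs or with 1 long run, and the last 3 a peak with no run, a snoRNA and the scaRNA position described below:

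Miat, chr5:112217429-112217528, minus strand: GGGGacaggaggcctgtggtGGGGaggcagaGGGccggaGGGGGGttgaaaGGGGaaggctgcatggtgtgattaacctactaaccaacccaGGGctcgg
Rian, chr12:109661609-109661708, plus strand: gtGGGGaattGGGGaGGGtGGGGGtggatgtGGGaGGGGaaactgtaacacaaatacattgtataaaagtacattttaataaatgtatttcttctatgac
Xist, chrX:103460367-103460466, minus strand: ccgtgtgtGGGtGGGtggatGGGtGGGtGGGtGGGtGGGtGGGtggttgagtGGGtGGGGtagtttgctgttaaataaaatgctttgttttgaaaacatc
Mir124a-1hg, chr14:64590932-64591031, plus strand: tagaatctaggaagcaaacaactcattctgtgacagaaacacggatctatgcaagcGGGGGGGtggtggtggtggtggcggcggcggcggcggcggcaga
Peg13, chr15:72805701-72805800, minus strand: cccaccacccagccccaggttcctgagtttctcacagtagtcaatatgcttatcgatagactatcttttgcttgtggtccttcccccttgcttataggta
Snora81, chr16:23110857-23110956, plus strand: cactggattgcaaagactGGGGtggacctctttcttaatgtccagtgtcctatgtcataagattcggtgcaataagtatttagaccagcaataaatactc
Scarna2, chr3:108554439-108554538, minus strand: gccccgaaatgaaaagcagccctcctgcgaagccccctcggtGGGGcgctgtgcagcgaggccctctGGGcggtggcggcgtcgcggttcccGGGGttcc

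The Xist peak held 10 separate guanine runs, the Miat and Rian peaks 6 each, and the Mir124a-1hg peak a single run of 7.

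Over all peaks whose sequence could be read because they lay within 1 exon on their own strand, 186 of 235 non-coding exon peaks (79.1%, Wilson 95% interval 73.5 to 83.9) contained GGG. The share was 76.9% in 3′ UTR peaks (1815), 81.6% in coding-exon peaks (951) and 90.8% in 5′ UTR peaks (584). GGGG was found in 43.4% of the non-coding exon peaks, 45.3% of 3′ UTR, 41.5% of coding-exon and 62.8% of 5′ UTR peaks. The 5′ UTR peaks also had the highest share of guanine, 38.6% of bases against 28.5% in non-coding exons and 27.3% in 3′ UTRs. These shares are descriptions, because overlapping and neighbouring peaks share sequence.

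The RNA classes differed more among themselves. GGGG occurred in 24 of 37 peaks in exons of protein-coding genes (64.9%, 48.8 to 78.2) and 12 of 16 Miat peaks (75.0%). It occurred in 18 of 42 Meg3 peaks (42.9%), 7 of 24 Malat1 peaks (29.2%), 7 of 25 snoRNA and scaRNA peaks (28.0%) and 0 of 7 mitochondrial peaks. Cut into consecutive 100-base windows, the longest Meg3 transcript (14548 nt) had GGGG in 39.3% of 145 windows, that of Malat1 (6983 nt) in 30.4% of 69 and that of Miat (9163 nt) in 57.1% of 91. For GGG the peak and window shares were 83.3% and 77.2% in Meg3, 70.8% and 58.0% in Malat1, and 93.8% and 91.2% in Miat. Only the RNA strand was searched.

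Within Meg3 and within Malat1, peaks with GGGG had more reads than peaks without it in all 6 libraries. The median Meg3 peak with the run had 118 to 224 CPM (reads per 1000000 reads in peaks) over the libraries, against 50.3 to 137 CPM without it. For Malat1 the medians were 421 to 1030 CPM for 7 peaks and 133 to 537 CPM for 17. Over all long non-coding RNA peaks the order was the opposite in every library, for instance 16.1 against 18.0 CPM in saline replicate 1. The run was set at 4 guanines after these values were seen; with 3, the median was higher with the run in all 6 libraries for both Meg3 and Malat1. With 3, the order over all long non-coding RNA peaks varied: the median with the run was higher in 2 of 6 libraries (18.5 against 17.1 CPM in saline replicate 1).

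Of the 291 positions, 251 had a line in the count table and 40 had none, among them 17 in long non-coding RNAs, 12 in snoRNAs or scaRNAs and 5 in mitochondrial genes. Members that overlap another number 27, so their reads are not independent. The 12 highest positions, by the mean of the 6 libraries, lay in Malat1 (8), mt-Rnr2 (2), Scarna17 (1) and mt-Rnr1 (1). Malat1 peaks carried 43.4% of all reads in the 251 positions, Meg3 24.5% and mt-Rnr2 12.6%.

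Malat1, a nuclear-speckle RNA (chromosome 19, 5795690 to 5802672, minus strand), was bound along its length, from 232 to 6632 nt after its 5′ end. Its highest peak had 1030, 1168 and 2050 CPM in the saline libraries (replicates 1, 2 and 3, the order kept below) against 2179, 2077 and 1569 CPM under methamphetamine. The groups overlapped, and saline replicate 1 was the lowest library. Its 24 positions ranged 38.7-fold, from a mean of 43.4 to 1679 CPM, with a median of 360, and methamphetamine replicate 1 had the highest value at 23 of them. Spearman correlations between libraries across the 24 positions were 0.900 to 0.989, as a description of positions in 1 transcript that share libraries.

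Meg3, the maternally expressed RNA of the Dlk1-Dio3 locus (chromosome 12, 109541001 to 109571726, plus strand), had its 42 positions between 4050 and 29850 nt from its 5′ end. The 10 highest lay between 18350 and 21450 nt and held 51.5% of the gene's summed level. The highest position had 434, 236 and 525 CPM under saline against 507, 574 and 460 CPM under methamphetamine. Saline replicate 2 was the lowest and the groups overlapped on this scale. The position near the 5′ end had 144, 99.3 and 199 CPM under saline against 326, 185 and 67.2 CPM under methamphetamine. Across positions the library-to-library Spearman correlations were 0.811 to 0.983.

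**Figure D2:**
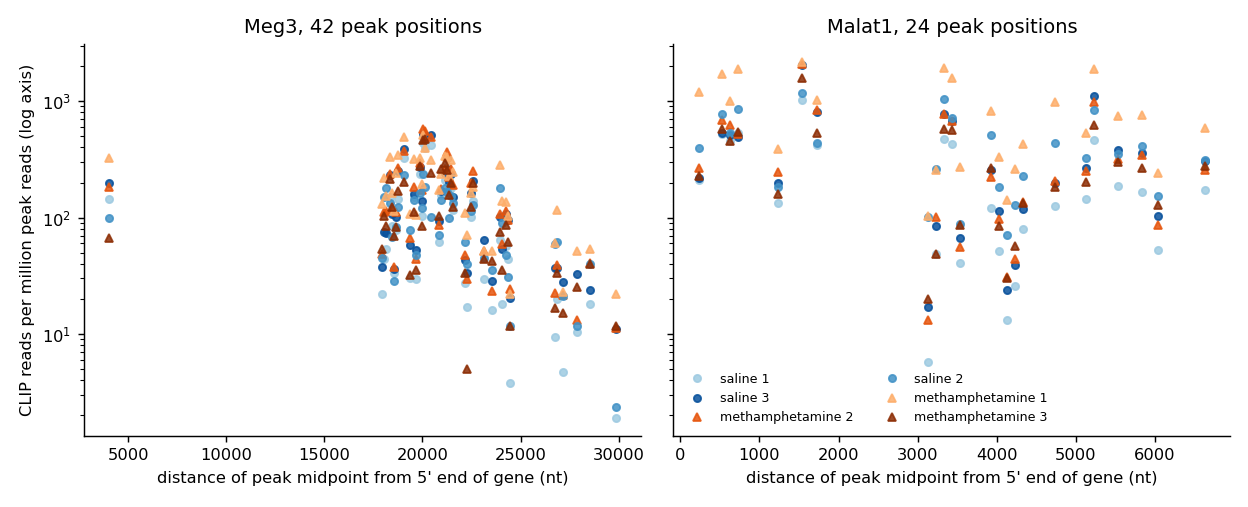
CLIP reads per 1000000 reads in peaks (CPM) (log axis) at each Meg3 position (left) and each Malat1 position (right) against the distance of the peak midpoint from the 5′ end of the gene in nt; circles are saline and triangles methamphetamine libraries, 1 point per library. The 10 highest Meg3 positions lie between 18350 and 21450 nt, whereas Malat1 positions are spread from 232 to 6632 nt.

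The mitochondrial rRNA genes had few but high positions. The mt-Rnr2 (16S rRNA) peak that ranked first had 1608, 1267 and 1913 CPM under saline against 2726, 1558 and 3440 CPM under methamphetamine. The high libraries were methamphetamine replicates 1 and 3, and replicate 2 lay inside the saline range. The mt-Rnr1 (12S rRNA) peak (chromosome M, 571 to 670, plus strand) had 271, 678 and 347 CPM under saline against 1199, 333 and 1320 CPM under methamphetamine. Its values fell in the order of the library sets: 271 to 347 CPM for set A, against 678 to 1320 CPM for set B.

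Scarna17, a scaRNA, had 1170, 1345 and 876 CPM in the saline libraries, and the methamphetamine libraries had 2082, 1352 and 1176 CPM. Its mean was 1333 CPM, and that of Snora81, next among the 25 counted snoRNA and scaRNA positions, was 46.2 CPM.

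Among the miRNA precursors Mir5108 was highest, with 384, 411 and 463 CPM under saline against 189, 364 and 590 CPM under methamphetamine. Its groups overlapped, and methamphetamine replicates 1 and 3 were the lowest and the highest of the 6 libraries. This position was in the methamphetamine list only, and its fitted log2 change was -0.06 ± 0.41 (SE, edgeR adjusted p = 0.996). The RefSeq hairpin (GRCm38.p6, chr10:61774737-61774821, plus strand) has a single run of 5 guanines:

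Mir5108 hairpin: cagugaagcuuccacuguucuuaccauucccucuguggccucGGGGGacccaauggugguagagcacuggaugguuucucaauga

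The Mir1906-2 peak had 29.4 to 135 CPM, but its 80-nt precursor is 100% identical to that of Mir1906-1, which lies on chromosome 12. Reads within the precursor therefore cannot be assigned to 1 of the 2 copies, and the flanking sequence was not compared. The hairpins of Mir125a and Mir9-1, both abundant in brain, lay under peaks with mean levels of 4.46 and 4.10 CPM.

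**Figure D3:**
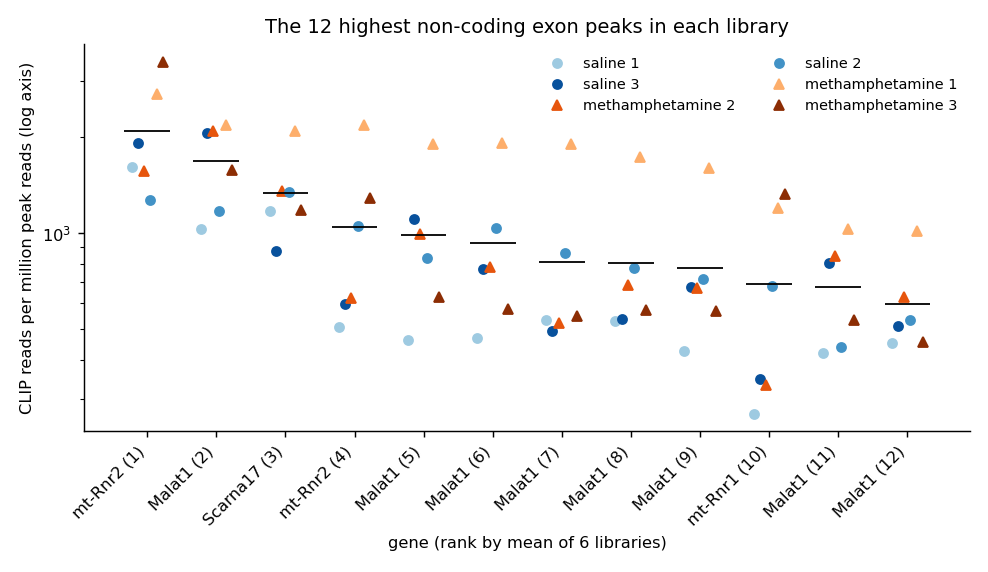
CLIP reads per 1000000 reads in peaks (CPM) (log axis) at the 12 highest non-coding exon positions, 1 point per library (circles saline, triangles methamphetamine) and a bar at the mean of the 6 libraries. Methamphetamine replicate 1 is the highest library at every Malat1 position shown, and at the first mt-Rnr2 position it reads 2726 CPM against 3440 in methamphetamine replicate 3.

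Other long non-coding RNAs had lower CLIP CPM, which was not corrected for their abundance. The Miat positions with a line in the count table (13 of 17) summed to 148, 170 and 250 CPM under saline against 264, 285 and 270 CPM under methamphetamine, so every methamphetamine library lay above every saline library. One of these Miat peaks lies on the opposite strand, and the order of the groups was the same without it. Of the 17 Miat positions, 8 were in both lists, 9 in the methamphetamine list only and 0 in the saline list only. The order of the groups is therefore not independent of how the positions were chosen. Neat1, the scaffold of paraspeckles, summed to 148, 118 and 169 CPM after saline and 147, 196 and 99.1 after methamphetamine, with overlap. Its highest peak (chromosome 19, 5839109 to 5839208, minus strand) had a signal value of 2.93 (methamphetamine list) and 2.96 (saline list), a score whose scale is not stated. Rian, from the same imprinted locus as Meg3, had 20.9, 16.6 and 29.4 CPM after saline at its highest position and 106, 31.6 and 23.5 CPM after methamphetamine. Replicate 1 stood apart and the other 2 methamphetamine values lay close to the saline range.

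Mir124a-1hg, the host transcript of a neuronal miRNA, had 10, 7 and 32 reads under saline, against 82, 16 and 16 under methamphetamine. Gas5, a snoRNA host transcript, had 5, 4 and 6 reads under saline, against 40, 10 and 12 under methamphetamine. In both, methamphetamine replicate 1 had the most reads.

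Some positions rested on 1 library. Peg13, an imprinted brain RNA, had no read in the 3 saline libraries at its 3 counted positions, and 60, 2 and 2 reads in methamphetamine replicates 1 to 3. A count of 0 allows up to 3 reads, or 2.85, 7.09 and 1.83 CPM in the saline libraries at each position. All 5 Peg13 positions were in the methamphetamine list only. Of the 251 counted positions, 51 had more than 50% of their reads, not scaled for depth, in 1 library, and this was methamphetamine replicate 1 in 35. The share over all listed peaks is not given here, so whether this is particular to these positions is not known.

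The non-coding exons of protein-coding genes had a median of 9.0 CPM per position (64 counted) and a highest mean of 82.2 CPM, in Epb41l4b. Ahdc1 was the protein-coding gene with the most positions, 4 neighbouring ones that summed to 160, 94.6 and 174 CPM under saline against 105, 152 and 119 CPM under methamphetamine. Pseudogenes had a median of 5.74 CPM over 19 counted positions. Reads from a pseudogene and its parent gene may not be separable, so these values are uncertain. The highest signal values, in the authors' lists, were those of Selenok-ps5 (4.55), BB557941 (4.07) and Tnxa (3.97) in the methamphetamine list, and BB557941 (4.15), BC051537 (3.93) and Sox2ot (3.79) in the saline list. BB557941, which was in both, had a mean of 51.9 CPM, and the other 4 had 1.45 to 4.03 CPM.

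Set against the other region classes, the median non-coding exon peak was higher in every library than the median 3′ UTR, 5′ UTR and coding-exon peak. It stood at 8.54, 14.2 and 12.8 CPM in the saline libraries, and at 22.0, 13.3 and 15.1 CPM in those of the methamphetamine group. The 3′ UTR medians were 4.75, 7.09 and 7.95, then 14.3, 8.16 and 6.72 CPM. The mean log2 difference was 0.84 ± 0.21 against 3′ UTRs, 0.60 ± 0.47 against 5′ UTRs and 0.82 ± 0.41 against coding exons (SD, n = 6 libraries). An exact sign-flip permutation test over the 6 libraries (two-sided) gave p = 0.0312, the smallest it allows, and an adjusted p of 0.0417 over 4 comparisons. Against introns the median was higher in 5 of 6 libraries (0.86 ± 0.68, exact p = 0.0625). The difference rested on Malat1 and Meg3: without their 66 positions the log2 differences were 0.15, -0.08, 0.13 and 0.17 against 3′ UTRs, 5′ UTRs, coding exons and introns (exact permutation adjusted p = 0.688), a setting chosen after seeing the data.

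In the methamphetamine list, 228 of 9903 positions (2.30%, Wilson 95% interval 2.02 to 2.62) were in non-coding exons, and in the saline list 171 of 9537 (1.79%, 1.55 to 2.08). The lists held 108 positions in common, 120 in the methamphetamine list alone and 63 in the saline list alone. With an overlap of 1 bp or more, 49.6% of the methamphetamine list's non-coding exon peaks met a saline peak and 64.9% of the saline list's met a methamphetamine peak. For all regions these shares were 48.7% and 50.0%. The files give 1 list per treatment, so the spread of these shares between replicates is not known, and the intervals cover counting error only.

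The 251 counted positions took 1.66%, 2.22% and 2.23% of the peak reads of the saline libraries, compared with 4.18%, 2.33% and 2.44% for methamphetamine. The groups did not overlap, with means of 2.04 ± 0.329% and 2.98 ± 1.04% (SD, n = 3 each), a difference of 0.947 percentage points. An exact two-sided permutation test gave p = 0.1, the smallest that 3 against 3 allows, and 0.733 adjusted over 11 such shares. Of the 291 positions, 120 were in the methamphetamine list alone and 63 in the saline list alone, against 5174 and 4808 over all regions. The share compared between treatments is therefore not independent of how the positions were chosen. Without methamphetamine replicate 1 the difference was 0.350 points. It was 0.209 points (exact permutation p = 0.3) for peaks with at least the median signal of their list, and 2.05 points (p = 0.2) when peaks were classed at their start, and in both the groups overlapped. Within set A it was 0.385 points and within set B 1.09 points. Long non-coding RNAs made up most of it, at 1.44 ± 0.289% under saline against 2.07 ± 0.892% under methamphetamine (exact permutation p = 0.4). Without mitochondrial, snoRNA, miRNA and other structured RNA the groups overlapped, at 1.54 ± 0.279% under saline and 2.18 ± 0.881% under methamphetamine. That difference was 0.635 points (exact permutation p = 0.4), and 0.137 points without methamphetamine replicate 1.

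**Figure D4:**
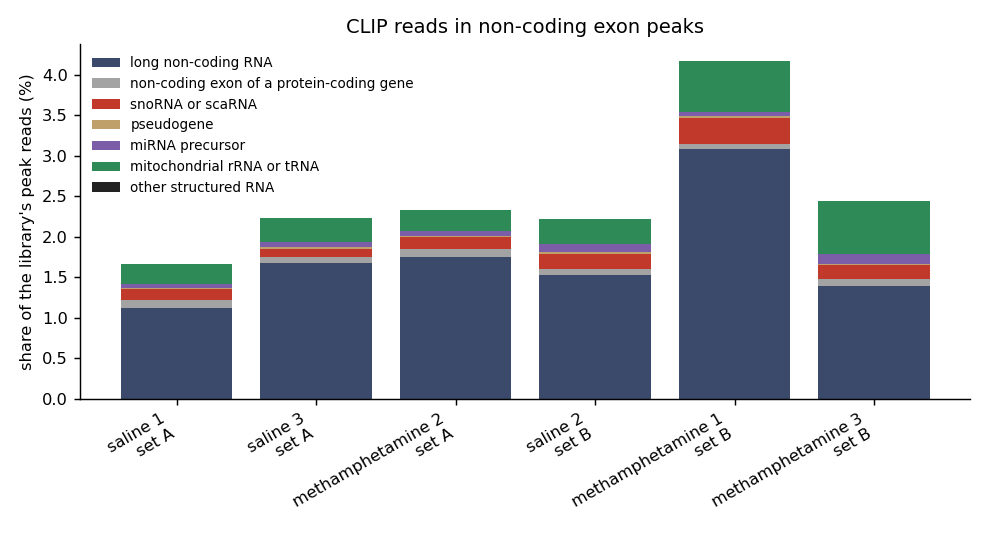
Share of each CLIP library's peak reads (%) that fell in non-coding exon peaks, stacked by RNA class, with libraries ordered by library set. Methamphetamine replicate 1 reaches 4.18%, and the other 5 libraries lie between 1.66% and 2.44%.

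In the test of single peaks (edgeR's quasi-likelihood test, methamphetamine against saline), 148 of the 251 counted positions passed the filter on low counts, and 0 of them had a Benjamini-Hochberg adjusted p under 0.05 (smallest 0.996). Over all 10358 peaks tested 0.0% passed. At an unadjusted p under 0.05, 4 non-coding exon positions were higher after methamphetamine (background 1.6% of all peaks tested) and 1 was lower (background 1.96%). Groups of library-scaled values did not overlap for 11 positions with higher values (7.43%, background 3.48%) and 2 with lower values (1.35%, background 5.01%). The 11 lay only in Meg3, Miat and Neat1, most of them in Meg3. Positions of 1 transcript share its level, so these 11 are not independent. The non-coding exon positions also came from lists made per treatment, 120 from the methamphetamine list alone and 63 from the saline list alone. Their shares beside the background are therefore not independent of how they were chosen. DESeq2 also gave 0 adjusted calls. At an unadjusted p under 0.05 it had 8 positions (7 higher and 1 lower), beside 198 higher and 147 lower of all 10358 peaks tested.

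Positions with the smallest unadjusted p are given as a ranking. The Scarna2 position at 108554439 on chromosome 3 had 6.89, 29.5 and 11.0 scaled CPM after saline and 132, 22.3 and 54.4 after methamphetamine, a log2 change of 2.25 ± 0.80 (SE, edgeR adjusted p = 0.996) with overlapping groups. The Miat position at 112217429 on chromosome 5 had 20.7 ± 6.04 scaled CPM under saline against 45.3 ± 12.7 under methamphetamine (SD over 3 libraries), a log2 change of 1.15 ± 0.44, and its groups did not overlap. This position was in the methamphetamine list only.

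The fitted changes of the long non-coding RNA positions leaned 1 way without passing the test. Their median was 0.74 on the log2 scale, with 87 of 91 above 0, beside a median of -0.04 over all 10358 peaks, of which 47.6% were above 0. Meg3 had 42 of 42 above 0 (median 0.67) and Malat1 24 of 24 (median 0.77). Positions of 1 transcript share its level in each library, so these counts are not independent. Of the 146 listed long non-coding RNA positions, 60 were in the methamphetamine list alone and 25 in the saline list alone. In Meg3 these numbers were 10 and 3, and in Malat1 6 and 8. The lean is therefore not independent of how the positions were chosen. Fitted on listed positions only, 85 of 89 were above 0 (median 0.80), beside 51.6% of 5411 peaks. Without methamphetamine replicate 1 the long non-coding RNA median was 0.09 with 54 of 95 above 0, and Malat1 had 7 of 24 above 0 (median -0.11) while Meg3 had 30 of 42 (median 0.27). Exons of protein-coding genes had a median of 0.07 over 28 positions.

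The levels of snoRNA and scaRNA positions followed the library sets. Their median was 6.65 and 4.28 CPM (saline 1, 3) and 4.08 CPM (methamphetamine 2) in set A, whereas set B had 18.9 CPM (saline 2), 40.7 and 16.8 CPM (methamphetamine 1, 3). Without Scarna17 the other 24 summed to 154, 129 and 161 CPM within set A, against 525, 1121 and 563 CPM within set B. These sums rested on 162, 211 and 158 reads within set A, and 222, 1019 and 335 reads within set B. At 10 of the 25 counted positions methamphetamine replicate 2 had at most 3 reads, and 22 had their highest CPM in methamphetamine replicate 1. In unscaled CPM every set B value lay above every set A value at 19 of the 25 counted positions, beside 6.05% of the 13811 listed peaks with counts. Scarna17 did not separate on this scale, with 1352 CPM in methamphetamine replicate 2 (set A) and 1176 CPM in methamphetamine replicate 3 (set B). After library scaling the order held at 15 of the 15 positions that passed the filter on low counts, beside 11.3% of all peaks tested (and 14.8% in the opposite order), and at 13 of 24 Malat1 and 8 of 42 Meg3 positions. The scaling raised set B values (factors 0.775 to 0.958) and lowered those of set A (1.10 to 1.19), and a position low in set A could pass the filter through set B, so the count after scaling is a description. In unscaled CPM, Snora81 (inside Eif4a2, a translation initiation factor gene) had 18.0, 11.0 and 20.4 within set A, and 78.0, 114 and 35.3 within set B. With set B holding methamphetamine replicates 1 and 3, the treatment fit gave a median log2 change of 1.53, and 0.30 when the library set was a covariate. It was 0.59 without methamphetamine replicate 1 (12 of 15 above 0) and 2.64 without saline replicate 2 (17 of 17 above 0). None of these positions passed the adjusted threshold in these fits. Beside this, the RNA-seq levels of 5 astrocyte markers summed to 464 to 576 CPM in set A and 647 to 770 CPM in set B. Those of 5 microglia markers summed to 206 to 226 and 243 to 281 CPM. The 6 oligodendrocyte markers overlapped between the sets, with 4850 to 11900 CPM in set A and 6480 to 11800 CPM in set B. Striatal neuron markers were lower in set B without overlap, and cortical markers overlapped between the sets. The sets were defined from the same RNA-seq values, so the marker differences between them are not independent of that definition. The part of these markers in the snoRNA difference was not tested.

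**Figure D5:**
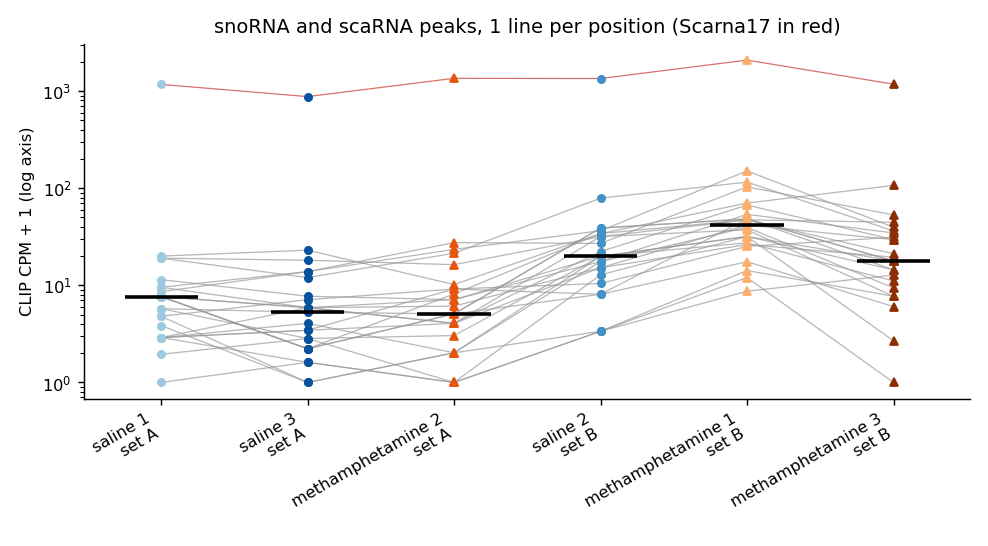
CLIP CPM + 1 (log axis) of each of the 25 counted snoRNA and scaRNA positions (1 line per position, Scarna17 in red) in the 6 libraries, ordered by library set, with a bar at the median. Medians are 4.08 to 6.65 CPM in the 3 set A libraries and 16.8 to 40.7 CPM in the 3 set B libraries.

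Of the 28 snoRNA and scaRNA genes, 16 contain GGG in their own sequence (57.1%), and 26 lie inside a host gene on the same strand. RNA-seq values were available for 18 hosts, among them the ribosomal protein genes Rpl12, Rpl13a and Rpl27a, the ribosome-associated Rack1, and Eif4a2 and Nop56. Their median log2 CPM was 6.88, beside 3.44 over all 18208 genes, and their median difference of set B from set A was 0.31 (range -0.87 to 1.16), beside -0.03 over all genes. The sets were defined from these RNA-seq values, so this difference is not independent of that definition. Between treatments the median log2 change of the 18 hosts was 0.06 (range -0.32 to 0.40), and 0 had an unadjusted limma p under 0.05. RNA levels of the small RNAs themselves, and of Meg3, Malat1, Miat, Neat1 and the mitochondrial rRNAs, were not analysed here, so binding at these RNAs could not be compared with their abundance.

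RNA levels could be read for 66 of the 165 gene symbols: all 57 protein-coding ones, 7 at positions classed as long non-coding RNA and 2 pseudogenes. Values were matched by symbol, so for those 7, Zswim6 among them, they need not be the level of the long non-coding RNA itself. The median of the 66 was 5.52 log2 CPM. With limma, 0 of the 66 had an adjusted p under 0.05 after methamphetamine (background 0.0% of 18208 genes). At an unadjusted p under 0.05, 1 of them was higher (background 0.555% of all genes) and 0 were lower (background 0.961%). That gene was Mid1, a microtubule-associated ubiquitin ligase, with 4.57, 4.32 and 5.20 log2 CPM after saline and 5.30, 6.60 and 5.36 after methamphetamine, a log2 change of 1.06 ± 0.36 (SE, limma adjusted p = 0.9998). Without methamphetamine replicate 2, the library with the highest value, it was 0.63. With any other single library left out it was 0.867 to 1.31, and with the library set as covariate 1.36. Methamphetamine replicate 2 also had the highest choroid plexus markers, and their part in the Mid1 value was not tested. Zswim6 (-0.27 ± 0.16) and Nufip2 (0.30 ± 0.22) came next by p. The median log2 change of the 66 was 0.02, beside 0.002 over all genes. Across the 64 of these genes with CLIP counts, summed CLIP CPM and RNA level had a Spearman correlation of 0.06, a description across genes that share libraries and differ in length.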

How the data were processed

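The members and gene lists were chosen with earlier results of these data known. The deposited counts are whole reads per peak and library in a featureCounts table, per the file headers; 172271 lines gave 147438 distinct positions. The deposited RNA-seq values are log2 CPM on limma's voom scale, per the labels. Reads recovered from them were whole for 100% of values, within a tolerance of 0.01 of the value (0.01 of a read at the lowest values). At large values any number passes this tolerance, so it cannot show that those reads are exact. The peak lists hold the authors' signal value, a score with no scale given in the sources used here, and the authors' q-values, of which the largest was 0.04997. The submitters' processing notes name mm10, Trimmomatic, UMI-tools, STAR, bedtools, Subread, featureCounts, limma and edgeR without their roles, so whether duplicate reads were removed is not stated.

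Each position was classed at its midpoint by the region annotation given in the deposited peak lists. Gene biotypes, gene coordinates and transcript sequences came from GENCODE M21. CPM is reads per 1000000 of a library's reads in counted peaks. Peaks were tested with edgeR 4.0.16 (quasi-likelihood, TMM, filter on low counts), with DESeq2 1.42.0 as an alternative, and RNA levels with limma 3.58.1 (R 4.3.3); edgeR on the recovered RNA-seq reads called 0 genes. Shares and medians were tested with exact permutation tests (scipy 1.17.1), and Benjamini-Hochberg adjustment was used. The tests were checked on simulated data. Depth was 423057 to 1635338 reads in peaks per CLIP library. Intervals cover counting error only. Each replicate is a pool of mice.

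Positions and genes named are the 12 highest by CPM, the 3 with the smallest p, the 6 genes with most positions, the 3 highest signal values per list, the 3 hosts with the smallest p, and members of fixed lists. Others (Mir5108, Mir1906-2, Mir125a, Mir9-1, Snora81, BB557941, Epb41l4b, Ahdc1) were chosen after their values were seen. One position that the rule names is not reported here. Replicate numbers did not pair the samples.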

Additional observations from a re-analysis of the deposited data

How the results depend on the processing

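0 peaks passed the adjusted threshold with edgeR, DESeq2, library totals, DESeq2 size factors, the library set as covariate or any single library left out. Without the count filter 414 of 140449 peaks passed, 1 of them a non-coding exon position. Non-coding exon positions at an unadjusted p under 0.05 numbered 5 of 148 (all peaks tested: 166 higher and 203 lower of 10358). DESeq2 gave 8 of 148 (198 and 147 of 10358), and the library set as covariate 2 of 148 (66 and 218 of 10358). Without the filter there were 24 of 251 (4540 and 2252 of 140449). There were 0 of 173 without saline replicate 1 (113 and 193 of 13049) and 25 of 170 without saline replicate 2 (582 and 364 of 13468). Leaving out methamphetamine replicate 2 gave 30 of 168 (696 and 396 of 12979). The cause was not tested.

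The log2 difference of non-coding exon peaks ranged from 0.772 to 0.882 against 3′ UTRs, 0.46 to 0.691 against 5′ UTRs and 0.679 to 0.91 against coding exons with single libraries left out, where 5 libraries cannot give an exact p under 0.0625. With peaks of at least the median signal it was 0.305, 0.337 and 0.535, and without Malat1 and Meg3 0.151, -0.0838 and 0.131, so against 5′ UTRs the direction turned. With means of log2(CPM + 1) the difference from introns was 1.33. The share of peaks with GGG (79.1%) was 43.4% for GGGG, 15.7% for GGGGG and 52.8% in the central 50 nt. Alternatives on strand, Malat1 and Meg3, snoRNA shares and class counts were chosen after seeing the data.

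Same-numbered replicates did not deviate together (correlations -0.362, -0.542 and -0.089 in CLIP), and 0 libraries correlated best with their own number. With the replicate block, 0 peaks passed, and the share difference of 0.947 points had an exact permutation p of 0.25. In that fit 1 of 148 non-coding exon positions had an unadjusted p under 0.05, beside 57 higher and 52 lower of all 10358 peaks tested. Depth limits positions with few reads, and 103 of the 251 counted positions were not tested.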
